A study of Danio rerio with 24 samples.

Results

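Germ plasm is the maternally made cytoplasm that turns the few cells inheriting it into primordial germ cells. In zebrafish it is gathered in the oocyte around the Balbiani body and holds mRNAs and proteins of RNA regulation. After zygotic transcription begins, the microRNA miR-430 and other clearance machinery remove many of these maternal mRNAs from somatic cells, and RNA-binding proteins of the germ plasm protect copies of them in the germ cells. A whole-embryo library therefore mixes a large somatic pool of maternal mRNA with the RNA of a small number of germ cells. In such bulk samples, fewer cells of a type and less RNA per cell cannot be told apart.

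Expression of 10 germ plasm and germ cell genes was followed among the 31901 genes of the deposited tables. The genes were chosen by symbol: ddx4, nanos3, dnd1, dazl, tdrd6, tdrd7a, ca15b, piwil1, piwil2 and celf1. Earlier results of these data were known at the choice. Counts of called genes set beside the share over all tested genes below are thus descriptions, not an independent test. The embryos were wild-type zebrafish kept in 40 µM tetrabromobisphenol A (TBBPA), a brominated flame retardant, or in 0 µM, and both treatments carried 0.1% dimethyl sulfoxide (DMSO). Exposure began at 0.75 hours post fertilization (hpf), and whole embryos were collected at 2, 3.5 or 4.5 hpf, which gave 6 groups of 4 libraries. The labels do not give the age or strain of the parents, the number of embryos in a library, or whether replicates came from separate clutches, so p-values measure only spread among these libraries, which may be technical. Levels are given as FPKM (reads per gene divided by gene length and by a factor for library size), with the SD over 4 libraries. Differences are log2(FPKM + 1), tested with limma, a linear model fitted to all genes that passed a filter, and a gene was called at a Benjamini-Hochberg adjusted p under 0.05.

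All 10 genes passed the filter on low values in every comparison, and none was under 1 FPKM in any library. Reads assigned to genes, recovered from the FPKM, ranged from 10.6 M to 20.0 M per library, and each of the 10 genes had at least 339 reads in every library. As a check of tissue, 7 of 10 marker genes of differentiated tissues were under 1 FPKM in all 24 libraries, and 2 of these were listed at 0 throughout. The 7 genes of meiosis, which has not begun at these stages, summed to between 9.43 and 14.3 FPKM per library. The mitochondrial share of reads was 2.14% ± 0.13 in DMSO and 1.82% ± 0.10 in TBBPA at 3.5 hpf, and 2.47% ± 0.060 and 1.85% ± 0.12 at 4.5 hpf. Its part in the differences below was not tested.

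At 2 hpf, before the main wave of zygotic transcription, the embryos held abundant maternal mRNA of most of these genes. By FPKM, which is per length, dazl in DMSO lay at 169 ± 17 FPKM, celf1 at 161 ± 7.4, ddx4 at 126 ± 7.8, nanos3 at 123 ± 20 and tdrd7a at 104 ± 3.1. These 5 genes were among the 710 most abundant of 25431 protein-coding genes in that group. The others lay at 78.2 ± 7.2 (dnd1), 60.6 ± 9.0 (tdrd6), 36.6 ± 3.7 (ca15b), 18.2 ± 0.62 (piwil1) and 11.6 ± 0.76 (piwil2). In this order the libraries of dazl and celf1 overlapped at the top, as did those of ddx4 and nanos3 and of nanos3 and tdrd7a below them.

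No gene of the set was called between TBBPA and DMSO at 2 hpf, where limma called 0 of 11061 tested genes (0%), as did limma voom on the recovered reads, and 795 reached an unadjusted p under 0.05 in limma. The largest difference was in dazl, which encodes an RNA-binding activator of translation in germ cells. Its DMSO libraries held 172, 148, 189 and 167 FPKM and its TBBPA libraries 142, 121, 152 and 138. The TBBPA values lay lower on average, but the groups overlapped, and the log2 difference of −0.29 had a 95% interval of −0.48 to −0.10 before adjustment and an adjusted p of 0.684 in limma. Celf1 had an unadjusted p of 0.0399 (log2 difference −0.13, adjusted p = 0.684 in limma), and the other 8 genes lay between −0.05 and 0.10. Libraries of the groups overlapped for all 10 genes, against 4.48% of tested genes whose libraries did not overlap (2.09% higher and 2.39% lower).

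**Figure D1:**
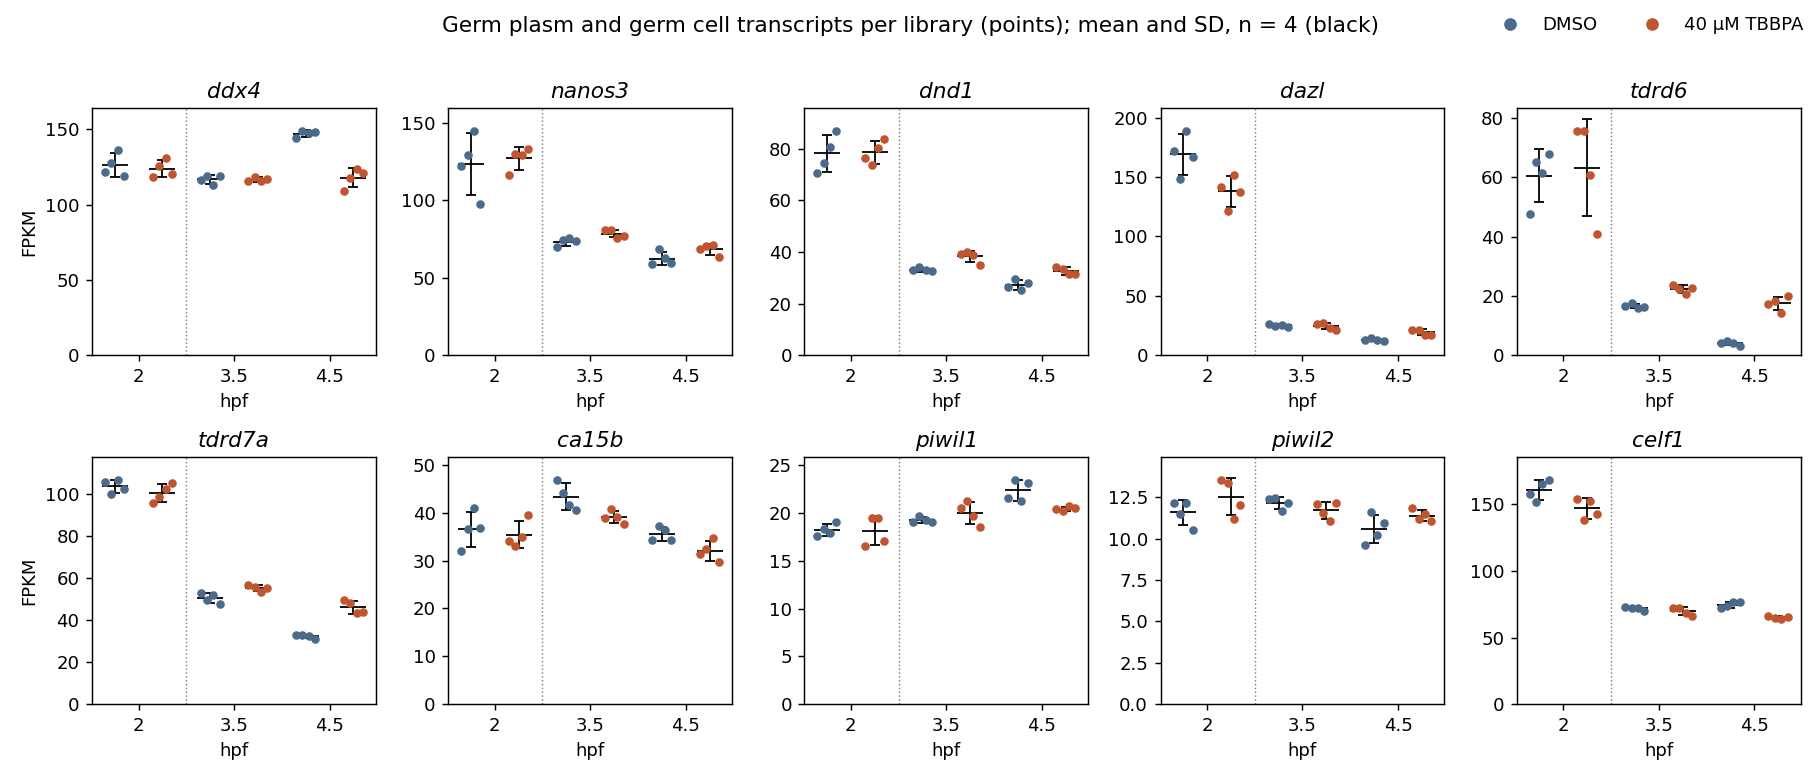
FPKM of the 10 germ plasm and germ cell genes in every library (points, 4 per group) at 2, 3.5 and 4.5 hpf, with group mean and SD in black, each panel on its own linear axis from 0. The dotted line separates the 2 tables, which were scaled separately. The tdrd6 libraries of DMSO at 4.5 hpf lie between 3.18 and 4.64 FPKM and those of TBBPA between 14.4 and 19.9.

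From 2 to 3.5 hpf the 10 genes took 2 different courses in DMSO embryos. The 2 hpf table was scaled separately from the later one, so these levels are set side by side without a test, as TPM, per-length levels rescaled so that each library has the same sum. Stage and table differ together here, and TPM does not separate them. Dazl at 3.5 hpf stood at 15.0% of its 2 hpf mean, tdrd6 at 27.5%, dnd1 at 42.9%, celf1 at 45.2%, tdrd7a at 49.2% and nanos3 at 60.1%. Ddx4 stood at 93.6%, piwil2 at 106%, piwil1 at 107% and ca15b at 120%. The same percentages in TBBPA embryos were 17.4% for dazl, 34.7% for tdrd6, 48.1% for dnd1, 46.9% for celf1, 54.3% for tdrd7a, 60.9% for nanos3, 93.0% for ddx4, 92.1% for piwil2, 109% for both piwil1 and ca15b. Thus 6 genes lay well below their 2 hpf level in either treatment, and ddx4, ca15b, piwil1 and piwil2 stayed near it. The 10 genes together summed to 2359 ± 83 TPM in DMSO and 2319 ± 32 in TBBPA at 2 hpf, and to 1241 ± 11 and 1290 ± 30 at 3.5 hpf.

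At 3.5 hpf tdrd6, dnd1 and, at the threshold, tdrd7a were higher in TBBPA than in DMSO embryos. Of the 10 genes limma called 3 higher and 0 lower, against 6.67% of 11859 tested genes higher and 5.34% lower (12% in all). Among the tested genes present at 2 hpf, with a mean of 2 FPKM or more over all libraries of that stage, the shares were 7.92% and 3.45% (11.4% in all). The clearest was tdrd6, a multi-Tudor protein that organizes germ granules by binding Piwi and Vasa partners. Its DMSO libraries held 16.4, 17.5, 15.9 and 16.1 FPKM, and its TBBPA libraries 23.6, 22.4, 20.5 and 22.5. Every TBBPA library lay above every DMSO library, with a log2 difference of 0.41 (SE 0.051, adjusted p = 0.000656 in limma).

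Dnd1, which encodes Dead end, an RNA-binding protein that shields germ cell mRNAs from microRNAs, held 33.0, 34.4, 32.9 and 32.5 FPKM in DMSO and 39.1, 40.1, 38.9 and 35.2 in TBBPA. The groups did not overlap, and the log2 difference was 0.20 (SE 0.043, adjusted p = 0.0133 in limma). Tdrd7a, another Tudor scaffold of germ granules, held 52.9, 49.5, 51.9 and 48.0 FPKM in DMSO and 56.9, 55.8, 53.2 and 55.5 in TBBPA. The lowest TBBPA library lay just above the highest DMSO library. Its log2 difference of 0.13 (SE 0.037, adjusted p = 0.0486 in limma) sat at the threshold and lost its call without DMSO replicate 2, 3 or 4 or TBBPA replicate 1, 2 or 4, with log2 differences of 0.10 to 0.15 and adjusted p of 0.0322 to 0.128 when each library was left out. The call was also lost with no filter (adjusted p = 0.0941 in limma), median-of-ratios scaling (0.0622) and a fit of all libraries of the table (0.0713).

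Nanos3, a translational regulator that primordial germ cells need to survive and migrate, did not pass at 3.5 hpf. It held 69.8, 74.3, 75.5 and 73.5 FPKM in DMSO and 80.6, 80.6, 75.7 and 77.2 in TBBPA, a log2 difference of 0.10 (adjusted p = 0.0831 in limma). These libraries did not overlap either, which made 4 of the 10 genes higher without overlap and 0 lower, against 10.4% and 6.82% of tested genes (17.2% in all). Ca15b, a carbonic anhydrase gene whose mRNA is enriched in primordial germ cells, had a log2 difference of −0.14 (adjusted p = 0.0782 in limma), with overlapping libraries at 40.6 to 46.9 FPKM in DMSO and 37.6 to 40.9 in TBBPA. Limma voom on the recovered reads called ca15b lower (−0.16, adjusted p = 0.0427). Ddx4, dazl, piwil1, piwil2 and celf1 had differences between −0.05 and 0.05 and adjusted p of at least 0.483 in limma. The median of the 10 genes was 0.03, beside 0.01 for all tested genes.

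**Figure D2:**
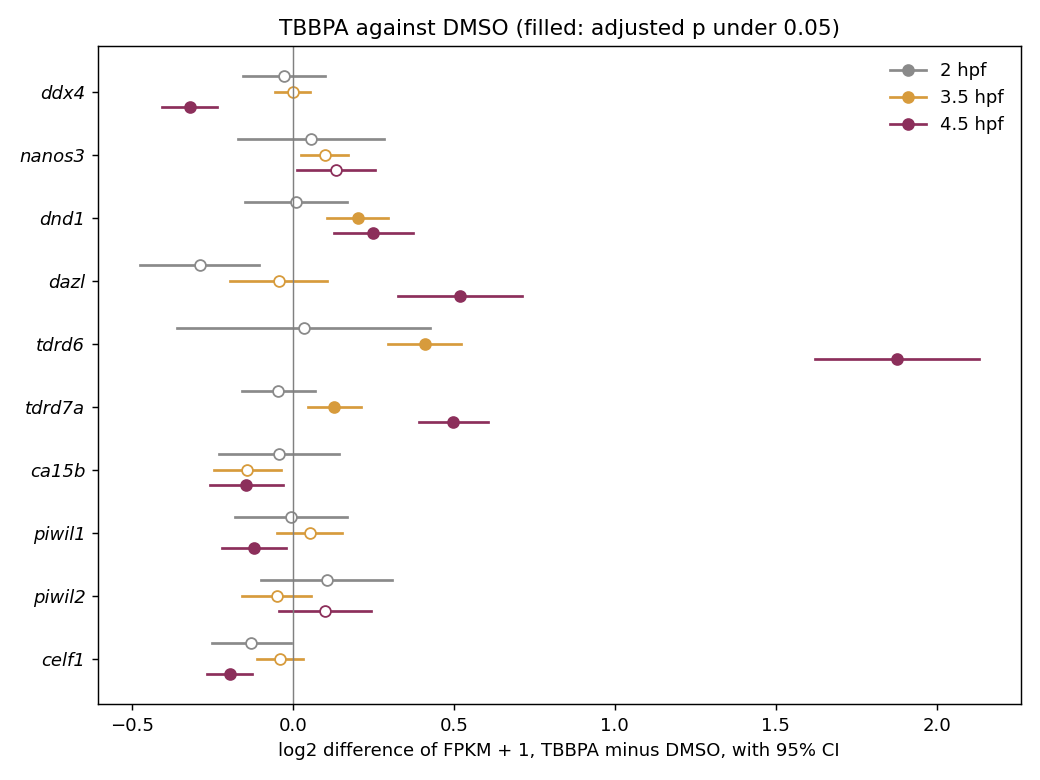
Log2 difference of FPKM + 1 between TBBPA and DMSO (x axis) for each gene (y axis) at 2, 3.5 and 4.5 hpf, with 95% confidence intervals, 4 libraries per group, and filled points where limma's adjusted p was under 0.05. At 4.5 hpf tdrd6 stands at 1.88 and ddx4 at −0.32, and the lower values of ca15b and piwil1 turn above 0 with TPM scaling.

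By 4.5 hpf the 10 genes had divided. Tdrd6, dazl, tdrd7a and dnd1 were higher in TBBPA embryos, and ddx4, celf1, ca15b and piwil1 were lower. That made 4 higher and 4 lower, against 33.1% and 35% of 12324 tested genes (68.1% in all). Among the genes present at 2 hpf the background was 39.3% higher and 31.6% lower (70.9% in all). The share of the 10 genes called was thus close to the background at this stage. Their median log2 difference was 0.12, beside −0.02 for all tested genes and 0.04 for the genes present at 2 hpf. Rescaling to TPM raised the median of all tested genes by 0.15 and scaling to the total count raised it by 0.12. With these scalings 65.8% and 62.5% of the called genes were higher, against 48.6% with the authors' scaling, and the set counted 6 higher and 1 lower in each. Differences near 0 at 4.5 hpf are therefore read below with all scalings.

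Tdrd6 differed most. Its DMSO libraries at 4.5 hpf held 4.05, 4.64, 4.26 and 3.18 FPKM, and its TBBPA libraries 17.3, 18.3, 14.4 and 19.9. The lowest TBBPA value was thus far above the highest DMSO value, and the means, 4.03 ± 0.62 and 17.5 ± 2.3, stood 4.33-fold apart. The log2 difference was 1.88 (SE 0.11, adjusted p = 3.8e-07 in limma), at percentile 99.8 of all tested genes, and it lay between 1.79 and 1.96 when each library was left out in turn. The 3′ end of tdrd6 (ENSDARG00000070052, chromosome 20, 35438300 to 35462226, plus strand, gene length 7305 bases, with the genome build not given in the sources used here) overlaps 491 bases of pla2g7, a phospholipase gene on the other strand. Pla2g7 lay at 8.59 ± 0.036 FPKM in DMSO and 9.78 ± 0.18 in TBBPA at 3.5 hpf, and at 4.98 ± 0.62 and 9.05 ± 0.52 at 4.5 hpf. Whether the libraries kept strand is not known, and the part of pla2g7 reads in the tdrd6 difference was not tested.

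Dazl (ENSDARG00000036214, chromosome 19, 20389104 to 20403871) held 13.1, 14.1, 12.8 and 12.3 FPKM in DMSO and 21.4, 21.4, 16.9 and 17.2 in TBBPA at 4.5 hpf. All TBBPA libraries were above all DMSO libraries, although they fell into a higher and a lower pair, and the log2 difference was 0.52 (SE 0.086, adjusted p = 0.000341 in limma). Tdrd7a (ENSDARG00000032808, chromosome 1, 12195700 to 12228116) held 32.8, 32.9, 32.6 and 31.2 FPKM in DMSO and 49.6, 48.0, 43.5 and 43.8 in TBBPA, a log2 difference of 0.50 (SE 0.048, adjusted p = 7.66e-06 in limma). The DMSO libraries lay within 2 FPKM of each other and well below those of TBBPA. Dnd1 (ENSDARG00000022813, chromosome 14, 7397804 to 7409364) held 26.3, 29.6, 25.3 and 28.0 FPKM in DMSO and 34.3, 33.4, 31.4 and 31.3 in TBBPA, a log2 difference of 0.25 (SE 0.055, adjusted p = 0.00222 in limma). These groups did not overlap, and the 4 higher genes kept direction and call under every alternative tried. With TPM scaling the difference of dnd1 grew to 0.42.

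Among the lower genes ddx4 was the clearest. It encodes Vasa, a DEAD-box RNA helicase and the classical marker of germ plasm and germ cells. Ddx4 (ENSDARG00000014373, chromosome 10, 6884123 to 6905574) held 144, 149, 147 and 148 FPKM in DMSO and 109, 117, 124 and 121 in TBBPA at 4.5 hpf. All TBBPA libraries were below all DMSO libraries, with a log2 difference of −0.32 (SE 0.038, adjusted p = 3.31e-05 in limma). The size depended on the scaling, −0.15 with TPM and −0.18 with total-count scaling, with adjusted p of 0.00426 and 0.00129 in limma.

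The calls of celf1, ca15b and piwil1 depended on the scaling. Celf1 encodes an Elav-like RNA-binding protein whose maternal mRNA reaches the germ plasm, and it held 72.2, 73.5, 76.8 and 76.3 FPKM in DMSO and 66.2, 64.8, 63.7 and 65.3 in TBBPA. The groups did not overlap, and the log2 difference was −0.20 (SE 0.031, adjusted p = 0.000259 in limma), but −0.02 with TPM (0.527) and −0.06 with total-count scaling (0.113). BX571680.1, an RNA annotated within celf1 on the same strand, was at 2.18 ± 0.61 FPKM in DMSO against 1.16 ± 0.42 in TBBPA, and its part in the celf1 difference was not tested. Piwil1 (Ziwi), an Argonaute that binds piRNAs to silence transposons, held 21.6, 23.5, 21.3 and 23.1 FPKM in DMSO and 20.4, 20.2, 20.7 and 20.5 in TBBPA. Its log2 difference of −0.12 (adjusted p = 0.0323 in limma) turned to 0.05 with TPM scaling and to 0.01 when libraries were scaled to their totals. Ca15b lay at 34.3 to 37.1 FPKM in DMSO and 29.8 to 34.7 in TBBPA, which overlap, and its difference of −0.15 (adjusted p = 0.0274 in limma) turned to 0.03 with TPM. Limma voom on the recovered reads called neither of the last pair (adjusted p = 0.069 for piwil1 and 0.0698 for ca15b). Each of them also lost its call with median-of-ratios scaling (adjusted p = 0.0695 for piwil1 and 0.056 for ca15b in limma). Piwil1 lost it without DMSO replicate 2 or 4 or any 1 TBBPA library (log2 differences of −0.14 to −0.10 when each library was left out, adjusted p up to 0.0894). Ca15b lost it without DMSO replicate 2 or 3 or TBBPA replicate 1 or 4 (−0.18 to −0.11, adjusted p up to 0.0743).

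Nanos3 and piwil2 (Zili), the other piRNA-binding Argonaute, did not pass at 4.5 hpf. Nanos3 held 58.7, 68.6, 62.5 and 59.7 FPKM in DMSO and 68.9, 70.3, 71.1 and 63.4 in TBBPA, and the groups overlapped (log2 difference 0.13, adjusted p = 0.0525 in limma). Piwil2 held 9.62, 11.6, 10.2 and 10.9 FPKM in DMSO and 11.9, 11.2, 11.5 and 11.1 in TBBPA, also with overlap (0.10, adjusted p = 0.194). Nanos3 was called without DMSO replicate 2 (0.18, adjusted p = 0.00799 in limma) or TBBPA replicate 4 (0.17, 0.0194). With TPM scaling both were called higher, at 0.31 and 0.26 (adjusted p = 0.000666 and 0.00394 in limma). Total-count scaling also called both (0.27 and 0.23, adjusted p = 0.00182 and 0.00938 in limma). So did limma voom on the recovered reads (0.17 and 0.15, adjusted p = 0.0233 and 0.0392). Nanos3 was called with median-of-ratios scaling too (0.155, adjusted p = 0.0288 in limma), and in 9 of 17 refits in all. In all, the libraries did not overlap for 4 higher and 3 lower genes, against 31% and 32.3% of tested genes (63.4% in all).

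**Figure D3:**
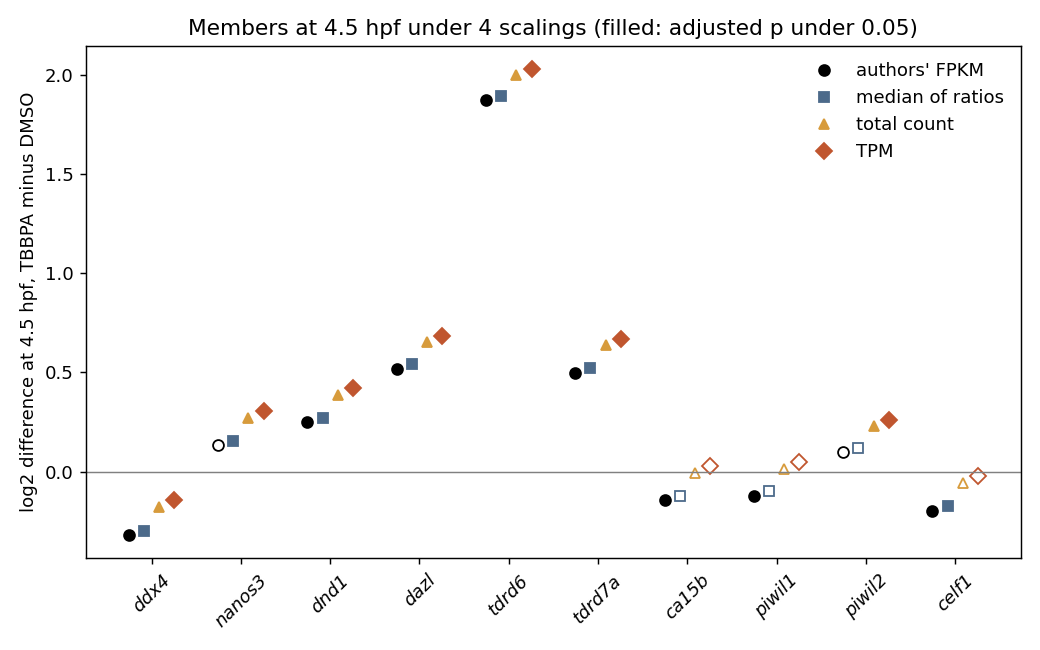
Log2 difference between TBBPA and DMSO at 4.5 hpf (y axis) for each gene (x axis) with the authors' FPKM and 3 other scalings, filled where limma's adjusted p was under 0.05, with 4 libraries per group. Tdrd6, dazl, tdrd7a and dnd1 stay above 0 and ddx4 below 0 with each scaling, and ca15b and piwil1 cross 0.

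Markers of another tissue moved at the same stages. All 5 enveloping layer markers (krt4, krt92, cldne, cldnb and grhl3), genes of the outer epithelium, were lower in TBBPA at 4.5 hpf. The background there was 35% of tested genes lower (68.1% called in all). At 3.5 hpf only 2 of the 5 passed the filter, and both were lower, against 5.34% of tested genes. The summed level of all 5 at 4.5 hpf ranged from 254 to 321 FPKM in DMSO and from 16.8 to 27.0 in TBBPA. At 3.5 hpf it ranged from 38.6 to 43.7 and from 6.84 to 10.9. Krt92 was listed at 0 in the 4 TBBPA libraries of 3.5 hpf, and in DMSO it was near 0 as well (0.095 ± 0.10 FPKM). At 4.5 hpf krt92, cldne, cldnb and krt4 had log2 differences of −4.38, −4.22, −4.08 and −4.08. Krt92 lay at 24.9 ± 7.3 FPKM in DMSO against 0.215 ± 0.031 in TBBPA, and krt4 at 23.6 ± 3.7 against 0.460 ± 0.24. Cldne lay at 109 ± 13 against 5.03 ± 1.5, and cldnb at 40.6 ± 5.9 against 1.52 ± 0.77. The 1 added to each FPKM understates these differences, most for krt92 and krt4. These last genes passed the filter through the DMSO libraries alone, where they were high. Fewer enveloping layer cells and less RNA per cell cannot be told apart here. The part of any shift in tissue makeup in the germ plasm differences was not tested.

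Between 3.5 and 4.5 hpf most of these transcripts fell in DMSO embryos and ddx4 rose. Limma called 7 of the 10 lower and 2 higher at 4.5 hpf, against 34.3% and 35.8% of 12354 tested genes (70.1% in all). For the tested genes present at 2 hpf these shares were 40.7% and 32% (72.8% in all). The median of the 10 was −0.25, beside 0.02 for all tested genes. Tdrd6 fell most, from 16.5 ± 0.72 to 4.03 ± 0.62 FPKM (log2 difference −1.81, SE 0.090, adjusted p = 5.5e-08 in limma). Dazl fell from 25.1 ± 1.1 to 13.0 ± 0.76 (−0.89), and tdrd7a from 50.6 ± 2.2 to 32.4 ± 0.78 (−0.63). None of these groups overlapped between the stages. In the whole set 7 genes were lower and 2 higher without overlap, against 31.9% and 32.9% of tested genes (64.8% in all).

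Smaller falls in DMSO were seen for dnd1 (−0.28), ca15b (−0.28), nanos3 (−0.23) and piwil2 (−0.19), with adjusted p from 0.000514 to 0.0205 in limma. Piwil2 lost its call without 3.5 hpf replicate 2 or 4.5 hpf replicate 1 or 3 (−0.18, −0.15 and −0.17, adjusted p up to 0.0599). Ddx4 rose from 117 ± 2.9 to 147 ± 2.1 FPKM (0.33, adjusted p = 1.4e-06 in limma). The size of this rise depended on the scaling, to 126% of the 3.5 hpf mean by FPKM and 112% by TPM, and its call was kept in all 17 refits. Piwil1 rose from 19.3 ± 0.31 to 22.4 ± 1.1 (0.21, adjusted p = 0.00181), but by 0.05 with TPM scaling (0.372). Celf1, at 71.7 ± 1.2 and 74.7 ± 2.2, was not called (0.06, adjusted p = 0.117) and turned to −0.11 with TPM scaling, where it was called lower (0.00639). In this comparison TPM scaling lowered the median of all tested genes by 0.14 and total-count scaling by 0.11, and the called genes were higher in 36.1% and 39.0%, against 51.1% with the authors' scaling. The set then counted 1 higher and 8 lower with either.

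In TBBPA embryos 6 of the 10 genes fell over the same hour and none rose, against 8.6% of 11877 tested genes lower and 6.15% higher (14.8% in all). For the tested genes present at 2 hpf these shares were 10.5% and 3.81% (14.3% in all). Libraries did not overlap for 7 lower genes and 0 higher, against 12.4% and 8.85% of tested genes (21.3% in all). The median was −0.21, beside −0.01 for all tested genes. Ca15b fell by 0.28, tdrd7a by 0.26, dnd1 by 0.23 and nanos3 by 0.20 on the log2 scale, with adjusted p from 0.00427 to 0.0119 in limma. Tdrd6 went from 22.2 ± 1.3 to 17.5 ± 2.3 FPKM (−0.34, adjusted p = 0.0263 in limma), and dazl from 24.3 ± 2.5 to 19.2 ± 2.5 (−0.33, adjusted p = 0.0449). The call of tdrd6 was lost without 3.5 hpf replicate 1, 2 or 4 or 4.5 hpf replicate 1 (−0.34 to −0.31, adjusted p up to 0.0748). That of dazl was lost without 3.5 hpf replicate 1, 2 or 3 or 4.5 hpf replicate 3 or 4 (−0.35 to −0.27, adjusted p up to 0.12). With no filter neither was called (adjusted p = 0.0667 for tdrd6 and 0.104 for dazl in limma). Ddx4 lay at 117 ± 1.5 and 118 ± 6.3 FPKM (0.01, adjusted p = 0.865 in limma), and piwil1, piwil2 and celf1 were not called either, although celf1 was called lower without 3.5 hpf replicate 4 (−0.12, 0.0358).

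**Figure D4:**
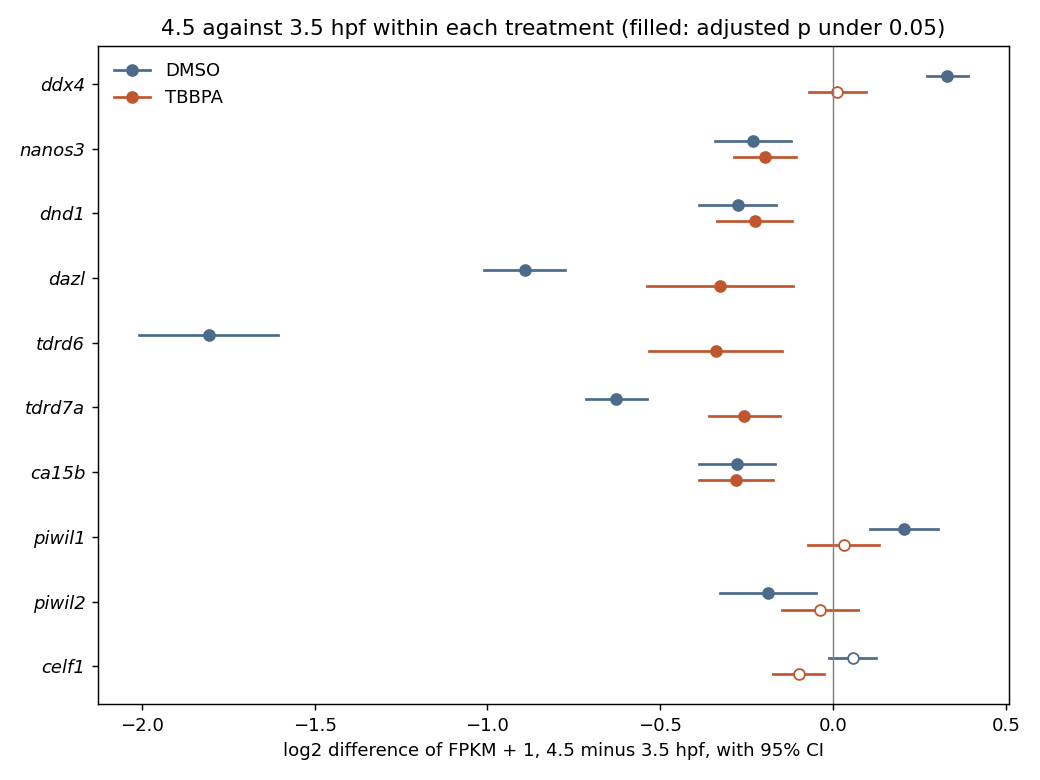
Log2 difference of FPKM + 1 between 4.5 and 3.5 hpf (x axis) for each gene (y axis) in DMSO and in TBBPA embryos, with 95% confidence intervals, 4 libraries per group, and filled points where limma's adjusted p was under 0.05. Tdrd6 stands at −1.81 in DMSO and −0.34 in TBBPA, ddx4 at 0.33 and 0.01, and celf1 in DMSO turns below 0 with TPM scaling.

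The difference between the TBBPA effects at the 2 stages was tested as an interaction term in a fit of 16 libraries. It was called for 6 of the 10 genes, against 52.8% of 12780 tested genes and 57.3% of those present at 2 hpf. The TBBPA effect was higher at 4.5 than at 3.5 hpf for tdrd6 (1.47, adjusted p = 1.89e-07 in limma), dazl (0.56, 0.000584) and tdrd7a (0.37, 8.78e-05), against 26.3% of tested genes and 32.7% of those present at 2 hpf. It was lower for ddx4 (−0.32, 1.95e-05), piwil1 (−0.17, 0.023) and celf1 (−0.16, 0.00618), against 26.6% and 24.6%. Piwil1 lost its call without TBBPA 3.5 hpf replicate 2 (−0.15, adjusted p = 0.0527 in limma) and with TPM scaling (−0.02), and celf1 turned to 0.01 (adjusted p = 0.916 in limma). For nanos3, dnd1, ca15b and piwil2 it was not called, although piwil2 was without DMSO 4.5 hpf replicate 2 (0.19, 0.0338) and TPM scaling called nanos3 (0.20), dnd1 (0.21) and piwil2 (0.30) higher. The median over all genes then moved up by 0.14, and by 0.11 with total-count scaling. With TPM scaling 69.0% of called genes were higher, against 49.7% with the authors' scaling and 65.3% with total-count scaling.

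Exposed embryos at 4.5 hpf were also set beside DMSO embryos 1 hour younger. Treatment and time differ together in this comparison, and it shares libraries with those above. Limma called 3 of the 10 genes, all lower in TBBPA at 4.5 hpf, against 8.08% of 11947 tested genes (3.55% higher and 4.53% lower). For those present at 2 hpf the shares were 7.11% in all, 2.77% higher and 4.35% lower. Libraries did not overlap for 1 higher and 3 lower of the 10, against 7.57% and 8.46% (16% in all). The called genes were ca15b (−0.42, adjusted p = 0.00156 in limma), dazl (−0.37, 0.02) and celf1 (−0.14, 0.0102), and dazl lost its call without DMSO replicate 1, 2 or 3 (−0.37 to −0.35, adjusted p up to 0.0564). The other 7 genes were not called, with 95% intervals of −0.12 to 0.26 for tdrd6, −0.24 to −0.02 for tdrd7a before adjustment, −0.11 to 0.06 for dnd1 and −0.08 to 0.10 for ddx4. In order of level, tdrd6 was thus lowest in DMSO at 4.5 hpf, next in DMSO at 3.5 hpf and TBBPA at 4.5 hpf, which were not told apart, and highest in TBBPA at 3.5 hpf. For dazl the order ran from DMSO at 4.5 hpf through TBBPA at 4.5 hpf to the 3.5 hpf groups, which were not told apart. In both orders the step between the TBBPA groups rests on a call lost in several refits. So does the step of dazl from TBBPA at 4.5 hpf to DMSO at 3.5 hpf.

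Relative to ddx4 in the same library, a measure that no scaling of the library changes, the genes were also compared between treatments at 4.5 hpf. The ratio of tdrd6 to ddx4 in FPKM was 0.0215 to 0.0311 in DMSO and 0.116 to 0.165 in TBBPA. The ratio of tdrd7a to ddx4 was 0.211 to 0.228 in DMSO and 0.352 to 0.455 in TBBPA, that of dazl 0.0829 to 0.0945 and 0.137 to 0.196, that of dnd1 0.171 to 0.199 and 0.255 to 0.314, and that of nanos3 0.404 to 0.461 and 0.525 to 0.631. The ratio of piwil1 to ddx4 was 0.144 to 0.158 and 0.168 to 0.187, and that of piwil2 to ddx4 0.0668 to 0.0778 and 0.0916 to 0.109. These 7 of 9 ratios were higher in TBBPA without overlap and 0 were lower, against 51.1% and 12.8% of 12323 tested genes (63.9% in all). The ratios of ca15b (0.232 to 0.249 and 0.247 to 0.287) and celf1 (0.494 to 0.521 and 0.516 to 0.607) overlapped. Such a ratio shows unequal change of the pair of genes, not which of them changed. The ratio of piwil1 to piwil2 was 2.03 to 2.25 in DMSO and 1.72 to 1.85 in TBBPA, without overlap. For this ratio no share over all tested genes was computed. At 3.5 hpf the ratio was 1.54 to 1.65 and 1.53 to 1.85, with overlap. The summed level of the 10 genes at 4.5 hpf depended on the scaling. With the authors' scaling it was 417 to 444 FPKM in DMSO and 423 to 437 in TBBPA, which overlap, and as TPM it was 1002 to 1066 and 1144 to 1186, which do not.

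The genes whose log2(FPKM + 1) was most like each member over the 16 libraries of 3.5 and 4.5 hpf were sought among 7966 protein-coding genes with a mean of at least 5 FPKM. These correlations describe 4 groups whose libraries share stage and treatment. For tdrd6 the nearest were slc25a38b, ankrd12 and timm10b (Pearson r = 0.995 for all 3), and for tdrd7a gipc2, cnp and pora (0.993 to 0.992). For dazl they were pygo2, pim3 and raver1 (0.981 to 0.971), and for ddx4 eif2s1a, strap and zc3hc1 (0.98 to 0.979). Nanos3 was most like gfm1, usp37 and chek1 (0.946 to 0.926), and dnd1 most like 3 genes with clone names (0.944 to 0.94). Ca15b was most like tdrd5 (0.92), ipmkb and zgc:171474, piwil1 like pinx1 (0.932), cnn3b and mbd3a, piwil2 like figla (0.869), elk1 and napgb, and celf1 like stk17al (0.924), cdca8 and prmt1. Among the members, tdrd6 and tdrd7a were alike (r = 0.96), tdrd7a and dazl also (0.956), and ddx4 ran opposite to tdrd6 (−0.944) and tdrd7a (−0.944).

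Other genes of the germ line were taken from lists, each read beside the background of 33.1% higher and 35% lower at 4.5 hpf and 6.67% and 5.34% at 3.5 hpf. The lists were chosen with earlier results of these data known, so a count beside the background describes a list and is no independent test of it. The lists share cpeb1b, h1m and zar1. Genes of the Balbiani body and germ plasm assembly were higher in TBBPA for 7 of 11 at 4.5 hpf and lower for 2 (median 0.41, and 8 and 0 with TPM scaling). Buc, which encodes Bucky ball, the organizer of the Balbiani body, was at 48.0 ± 6.9 FPKM in DMSO against 182 ± 12 in TBBPA (log2 difference 1.91), and its paralog buc2l at 12.4 ± 1.6 against 63.9 ± 6.2 (2.28). Rgs14a (0.90) and macf1a (0.66), a cytoskeletal linker that zebrafish oocytes need to take the Balbiani body apart, were higher too. At 3.5 hpf buc and buc2l were the 2 of 11 called, both higher. In DMSO 9 of the 11 fell and 2 rose from 3.5 to 4.5 hpf, against 34.3% and 35.8% of tested genes (70.1% in all). Of the 2 that rose, kif5ba lost its call with TPM scaling. In TBBPA 3 fell and none rose, against 8.6% and 6.15% of tested genes (14.8% in all).

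Other piRNA pathway and Tudor genes were 6 higher and 5 lower of 14 at 4.5 hpf, near the background. Their median was −0.14, and with TPM scaling 6 were higher and 3 lower with a median of 0.03. Tdrd1, a Tudor scaffold that binds Piwi proteins, was at 4.97 ± 0.43 FPKM in DMSO against 13.7 ± 1.0 in TBBPA (log2 difference 1.30). Fkbp6, a co-chaperone of the pathway in mouse (0.81), tdrd3 (0.77) and pld6, a mitochondrial nuclease that forms piRNA ends in mouse (0.55), were also higher. At 3.5 hpf none was higher and 2 of 14 were lower, tdrd5 and tdrd9. Tdrd9 lost that call with TPM scaling (adjusted p = 0.0824 in limma), while tdrd1 was then called higher (0.20).

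Other RNA-binding regulators and companions of maternal mRNA were 6 higher and 4 lower of 13 at 4.5 hpf, near the background. Their median was 0.02, and with TPM scaling 7 were higher and 3 lower with a median of 0.19. Cpeb1b, which controls polyadenylation of stored mRNA, was at 18.1 ± 0.95 FPKM in DMSO against 88.0 ± 10 in TBBPA (2.22). H1m, higher by 0.51, encodes a maternal linker histone and not an RNA-binding protein. Ybx1, a repressor of maternal mRNA translation, was at 810.1 ± 47 FPKM in DMSO against 446 ± 11 (−0.86). At 3.5 hpf cpeb1b and h1m were the 2 of 12 called, both higher.

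**Figure D5:**
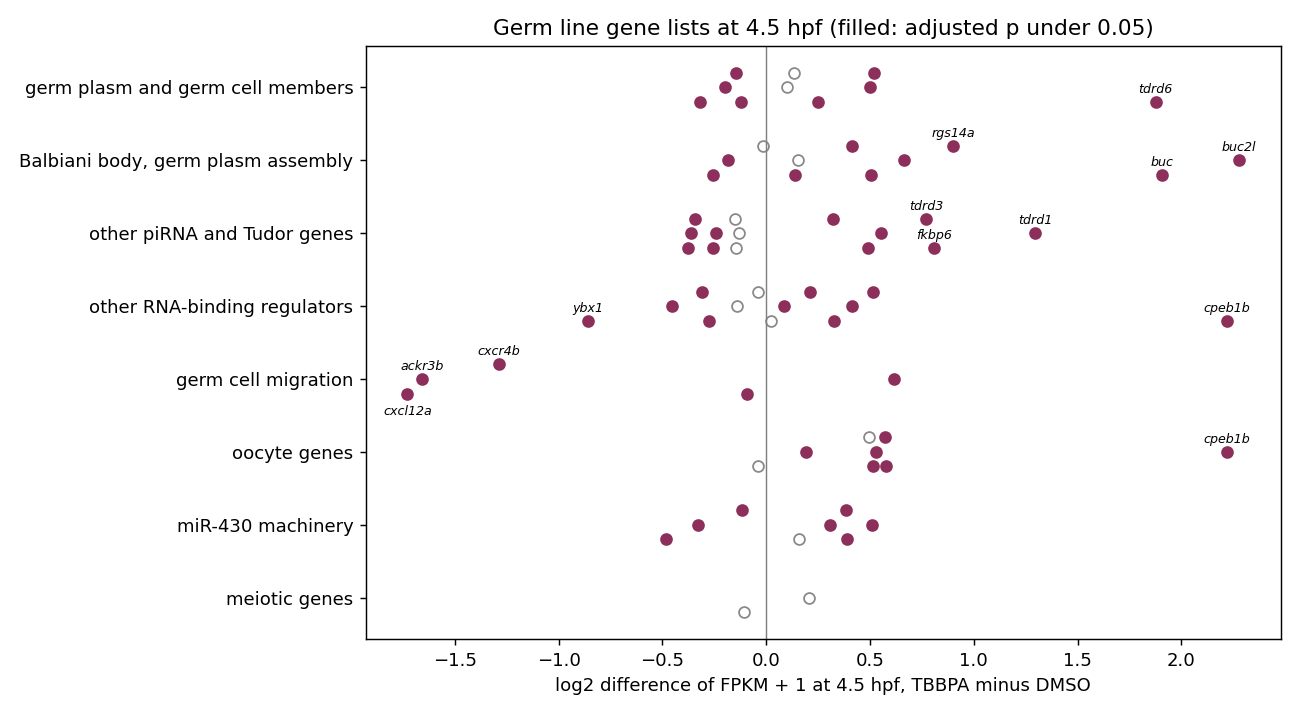
Log2 difference of FPKM + 1 between TBBPA and DMSO at 4.5 hpf (x axis) for every tested gene of 8 germ line lists (rows), filled where limma's adjusted p was under 0.05, with genes beyond 0.75 in either direction named. Buc2l (2.28), cpeb1b (2.22, on 2 lists), buc (1.91) and tdrd6 (1.88) lie farthest to the right, and cxcl12a (−1.73), ackr3b (−1.66) and cxcr4b (−1.29) farthest to the left. Of the members, ca15b and piwil1 turn above 0 with TPM scaling.

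Oocyte genes were higher in TBBPA at 4.5 hpf for 6 of 8 and lower for none (median 0.52), and for 3 of 8 at 3.5 hpf. Cpeb1b led them again, followed by the oocyte growth factor genes bmp15 (7.97 ± 1.0 FPKM against 5.07 ± 1.1, log2 difference 0.58) and gdf9 (22.4 ± 1.0 against 14.7 ± 1.1, 0.57) and the oocyte kinase gene wee2 (0.53). Machinery of microRNA clearance was 4 higher and 3 lower of 8 at 4.5 hpf (5 and 2 with TPM scaling), not far from the background. The silencing scaffold genes tnrc6a (28.3 ± 2.5 FPKM against 19.6 ± 2.1, 0.51) and tnrc6c1 (0.39) and the microRNA-processing gene dicer1 (0.39) were higher. Tnrc6c1 lay near the filter of 1 FPKM, at 1.36 ± 0.20 in TBBPA against 0.804 ± 0.17 in DMSO. Ythdf2, a reader of methylated mRNA that promotes maternal clearance, was lower (71.6 ± 1.1 against 101 ± 3.1, −0.49). Neither of 2 tested meiotic genes was called with the authors' scaling, and spo11, which makes meiotic breaks, was at 8.67 ± 0.60 FPKM in DMSO against 7.96 ± 0.50.

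Genes that guide migrating germ cells were mostly lower, with 4 of 5 lower and 1 higher at 4.5 hpf (median −1.29) and 3 of 4 lower at 3.5 hpf. Cxcl12a, the chemokine that primordial germ cells follow, was at 7.95 ± 1.1 FPKM in DMSO against 1.74 ± 0.65 in TBBPA (log2 difference −1.73), and its receptor gene cxcr4b had a difference of −1.29. Ackr3b, a scavenger receptor that shapes the chemokine field in somatic cells, was at 23.9 ± 1.7 against 6.89 ± 0.62 (−1.66). Cxcl12b, the second ligand gene, was the 1 called higher, at 0.891 ± 0.63 FPKM in DMSO against 1.80 ± 0.46 (0.61, adjusted p = 0.0386 in limma). Its DMSO mean lay under the filter of 1 FPKM, so it could enter the test only with TBBPA libraries, where it was high. At 3.5 hpf cxcl12a lay at 1.47 ± 0.21 FPKM in DMSO against 0.637 ± 0.23 in TBBPA and entered through the DMSO libraries. Neither call is independent of the filter. The lower call of cdh1, the E-cadherin gene (−0.09), turned to 0.08 with TPM scaling, which also called it higher at 3.5 hpf (0.09). These genes are also transcribed in somatic cells, so their levels in whole embryos are not those of germ cells alone.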

How the data were processed

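RNA sequencing of 24 whole-embryo libraries was deposited as 2 tables of FPKM, per the file headers and the labels, 1 for 2 hpf and 1 for 3.5 and 4.5 hpf. The submitters' processing notes name HISAT2 2.0.5 and featureCounts 1.5.0-p3. Genome build and annotation were not given in the sources used here. The labels' protocols name a directional and a non-directional library, so strand is unknown and overlapping genes are uncertain. Deposited FPKM times gene length gave whole multiples of 1 step per library for 100% of genes (within 0.001), which were taken as reads. The step followed median-of-ratios size factors within each table, so the tables were scaled separately. The 36 replicate pairs had Pearson r of 0.991 to 0.997 and differed by 2.22 to 12.5 times counting noise.

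A gene had to reach 1 FPKM in 4 or more of the libraries fitted, and was then tested on log2(FPKM + 1) with limma 3.58.1 (R 4.3.3), 2-sided, with trended variances and Benjamini-Hochberg adjustment over all tested genes at 0.05. Only the libraries compared entered a fit, and the interaction used 16. The fit was tested on simulated data. A pseudocount of 1 understates changes of low genes. The members and lists were chosen with earlier results of these data known. All members are named, and from each other list the up to 4 called genes with the largest difference at 4.5 hpf or, with none called, the most abundant. A gene that this rule names is not reported here. Mael, mov10l1, drosha, nobox and stra8 matched no gene by symbol or identifier. Gtsf1, tdrd15 and hbae1.1 were matched through a table of identifiers, and hook2 stands for 2 gene entries. Figures were drawn with Python 3.11.15 and matplotlib 3.10.9. Alternatives were a pseudocount of 0.1, no filter, a mean of at least 5 FPKM, TPM, total-count and median-of-ratios scaling, limma voom on the recovered reads, a fit of all libraries of the table, a replicate block and leaving out each library. No sequences are printed, because no table or genome with them was used here.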

Additional observations from a re-analysis of the deposited data

Results flagged for a closer look

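Tdrd7a in DMSO at 4.5 hpf had 1 library apart from the rest, replicate 4, at 31.2 FPKM, with the others between 32.6 and 32.9. Dixon's test marks about 1 in 20 groups of 4 by chance. The TBBPA effect differed between 4.5 and 3.5 hpf, by limma's interaction test, for tdrd6 (1.47), dazl (0.56), tdrd7a (0.37), ddx4 (−0.32), piwil1 (−0.17) and celf1 (−0.16) on the log2 scale. With TPM scaling piwil1 was no longer called and celf1 turned in sign.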

How the results depend on the processing

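Counts of members called kept within 1.5 times their value in each of 125 refits, as did 116 of 125 counts of all genes called. Leaving out 1 library moved the other 9 counts of all genes called. With so few members the rule is loose, as a change from 3 to 2 or from 6 to 4 passes, and at 2 hpf every count was 0. It also ignores direction. At 4.5 hpf 4 higher and 4 lower became 6 and 1 with TPM scaling and still passed. The genes called at 3.5 hpf ranged from 925 (without TBBPA replicate 2) to 1510, beside 1424 with all libraries. Those called between stages in TBBPA ranged from 1107 to 1699, beside 1753, with the 4 low counts without TBBPA 3.5 hpf replicate 1 or 2 or TBBPA 4.5 hpf replicate 3 or 4. Those called between TBBPA at 4.5 and DMSO at 3.5 hpf ranged from 539 to 837, beside 965, with 4 low counts. Fewer samples entered these fits. Of the refitted member differences 1171 kept their call status, 52 lost the call and 21 gained one. Another 6 turned in sign and were called in at least 1 of the fits compared. The 1171 include differences called in neither fit even where their sign turned. An example is tdrd6 at 2 hpf (−0.076 to 0.22 with each library left out). The 6 were, at 4.5 hpf, ca15b (0.026) and piwil1 (0.046) with TPM and piwil1 (0.014) with total-count scaling, between stages in DMSO celf1 with TPM (−0.11) and total-count scaling (−0.077), and in the interaction celf1 with TPM (0.0061). These scalings shift every gene of a library alike. Same-numbered replicates deviated together with r from −0.0804 to 0.165. In no pair of groups did all 4 exceed 0.1, a rule that cannot show whether same-numbered libraries were paired. Of the 4 TBBPA libraries at 3.5 hpf, 3 were most like their own number at 4.5 hpf, and in the other pairs of groups 0 to 2. A replicate block called 0, 2 and 8 members at 2, 3.5 and 4.5 hpf, 9 and 6 between stages in DMSO and TBBPA, 6 in the interaction and 3 in the last comparison. Under the block tdrd7a at 3.5 hpf (adjusted p = 0.0549) and piwil1 at 4.5 hpf (0.0559) lost their calls and nanos3 at 4.5 hpf gained one (0.024, limma).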
